A study of Homo sapiens with 6 samples.

Results

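Histone genes were read by 65 probe sets of 53 genes, out of 41091 probe sets of 19775 genes that carried a single gene symbol on the array. A probe set is a group of short probes designed for 1 transcript or a few alike ones. The members were taken by symbol alone, and every probe set of a matching gene was kept. Of the 65, 49 belonged to 43 clustered, replication-dependent genes of the H1, H2A, H2B, H3 and H4 classes. Another 12 belonged to 6 replication-independent genes (H1-7, H1-8, H1-10, H2AZ1, H2AZ2 and H3-3A). The remaining 4 probe sets read 3 pseudogenes and 1 antisense RNA whose symbols also matched, and none of these 4 passed the filter on dim probe sets. Of the clustered genes, 40 lie on chromosome 6, 2 on chromosome 1 and 1 (H2BC12L) on chromosome 21 in the RefSeq gene table.

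RNA came from U251 cells, a human glioma line, in 2 groups of 3 arrays. The control cells overexpressed GFP and the PARK2 cells overexpressed PARK2, the gene of the ubiquitin ligase parkin. Both were stable lines that had been infected with viral particles and selected with puromycin, so the controls share infection and selection with the PARK2 cells. The sample titles call the arrays of each group biological replicates. Whether each line was a pool or 1 clone is not given in the sources used here, nor whether those replicates were separate cultures. P-values therefore measure the spread between these arrays. The single comparison is of the PARK2 line against the GFP line. Array medians ran from 16.2 to 19.3 intensity units. Trimmed means were 168, 149 and 137 in the control and 141, 149 and 155 in the PARK2 arrays. By this measure control replicate 1 was the brightest array, and the main fit did not rescale the arrays. The part of array brightness in the spread of single probe sets was not tested. Of 9 glioma and glial markers 8 passed the filter, with vimentin (VIM) between 8527 and 9514 and GFAP between 207 and 396 intensity units. Among other cell types, 0 of 3 epithelial, 1 of 3 endothelial (PECAM1, at most 33.8), 1 of 2 haematopoietic (CD3E, at most 20.3) and 2 of 3 neuronal markers passed. Groups overlapped for the glial markers VIM, NES, GFAP, CD44, TNC and FABP7 and did not overlap for S100B, SOX2 and CHI3L1. Of all tested probe sets, 35.1% had groups that did not overlap. S100B ran from 256 to 493 in control and from 122 to 132 in PARK2 arrays, SOX2 from 4526 to 5582 and from 6012 to 6580, and CHI3L1, under the filter, from 13.6 to 15.7 and from 0.44 to 0.98. The neuronal markers SYT1 (at most 17.6 in control and at least 144 in PARK2 arrays) and SNAP25 (at most 15.8 and at least 41.2) also had groups that did not overlap. The other neuronal marker, RBFOX3, was under the filter with overlapping groups, at most 5.66 in control and 11.5 in PARK2 arrays. The part of these marker differences in the histone values was not tested.

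Histones H2A, H2B, H3 and H4 form the protein core around which DNA is wound, and linker histone H1 binds where DNA enters and leaves it. Clustered histone genes are transcribed mainly in S phase, when new chromatin has to be packed, and most of their mRNAs end in a stem-loop in place of a poly(A) tail. Replication-independent variants are made throughout the cell cycle from polyadenylated mRNAs. How the RNA was primed for labelling is not given in the sources used here, so the intensities of clustered genes are given as measured and not as total mRNA.

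The promoters of the 3 clustered genes that changed most are shown because the results turn on them: H1-2 and H2BC9, which were lower in PARK2 cells, and H2BC12, which was higher. Each stretch runs from 250 bases before to 50 bases after the gene's start, 5′ to 3′ on the gene's strand, from RefSeq on GRCh38.p14. Capitals mark the octamer ATTTGCAT, CCAAT and TATAAA on either strand. Overlapping matches were counted separately, so TTTATAAA counts as TATAAA and as its reverse complement.
H1-2, chr6:26056421-26056720, minus strand: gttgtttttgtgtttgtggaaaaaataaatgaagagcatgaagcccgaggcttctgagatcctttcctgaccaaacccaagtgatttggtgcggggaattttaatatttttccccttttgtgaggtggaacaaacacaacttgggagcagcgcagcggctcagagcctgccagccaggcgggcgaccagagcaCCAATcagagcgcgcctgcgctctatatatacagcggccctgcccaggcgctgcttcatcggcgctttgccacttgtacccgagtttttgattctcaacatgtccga
H2BC9, chr6:26251364-26251663, plus strand: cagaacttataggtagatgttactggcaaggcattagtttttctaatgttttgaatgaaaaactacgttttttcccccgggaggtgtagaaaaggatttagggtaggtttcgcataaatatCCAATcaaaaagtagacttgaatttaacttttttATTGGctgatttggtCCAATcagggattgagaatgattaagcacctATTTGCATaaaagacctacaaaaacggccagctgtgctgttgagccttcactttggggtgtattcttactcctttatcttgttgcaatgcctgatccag
H2BC12, chr6:27146806-27147105, minus strand: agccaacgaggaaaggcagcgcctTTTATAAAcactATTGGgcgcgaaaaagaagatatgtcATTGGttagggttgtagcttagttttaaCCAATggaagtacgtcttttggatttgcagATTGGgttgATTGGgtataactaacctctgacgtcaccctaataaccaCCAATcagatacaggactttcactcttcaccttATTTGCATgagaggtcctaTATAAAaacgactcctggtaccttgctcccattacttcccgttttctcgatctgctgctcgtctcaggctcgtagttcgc

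The octamer, known as an element of H2B promoters that the POU factor OCT1 binds, was found once in the H2BC9 and once in the H2BC12 window and 0 times in the H1-2 window. CCAAT, an element bound by NF-Y, was found 1 time in the H1-2, 3 times in the H2BC9 and 6 times in the H2BC12 window. TATAAA was found 3 times in the H2BC12 window. Among 40 clustered histone genes with a window in the table, 16 held the octamer, against 1.82% of the 27305 windows of all genes, 1 per gene. CCAAT stood in 87.5% of the 40 and 35.6% of all windows, TATAAA in 67.5% and 12.1%, and TTTGAA, the core of the cell cycle element CHR, in 35.0% and 15.6%. The gene that rose and one that fell thus share the octamer and CCAAT, and these letter matches describe the windows and are not sites shown to be bound.

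Most histone probe sets did not differ between the lines beyond the threshold. Of the 65, 40 passed the filter on dim probe sets and were tested, 6 passed the test and 34 did not. The test was limma on log2(intensity + 16) over 26603 probe sets, and past the threshold means a Benjamini-Hochberg adjusted p under 0.05. The 6 were 2 higher and 4 lower, out of 40, while 20.4% of all tested probe sets passed (9.1% higher and 11.3% lower). Under quantile normalization the histone split was 7 higher and 5 lower, and over all 26603 tested probe sets it was 3705 and 3798. Among the 40 tested, the groups of 3 arrays did not overlap for 6 higher and 7 lower histone probe sets, and 35.1% of all tested probe sets had groups that did not overlap. The median log2 change of the 40 was -0.03, where log2 changes are PARK2 minus control on the log2(intensity + 16) scale, against -0.0060 over all tested probe sets. In bulk RNA, fewer cells that make a transcript and less of it per cell cannot be told apart.

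Among linker histones, H1-2, one of the main H1 subtypes of dividing cells, fell. Its 3 control arrays read 272, 244 and 170 intensity units, and its 3 PARK2 arrays 100.2, 82.0 and 79.3, in replicate order as everywhere here. Every PARK2 array lay below every control array, and the control arrays spread more widely. The mean went from 228 ± 52.2 (SD, n = 3) to 87.2 ± 11.4, a log2 change of -1.23 (SE 0.18, limma's adjusted p 0.00010). The adjusted p stayed between 1.4e-08 and 0.0035 under the 18 other settings.

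The other clustered H1 genes were dim. H1-3 read 23.6 ± 12.9 in the control and 8.85 ± 6.59 in the PARK2 arrays (SD, n = 3 each), with a log2 change of -0.64 (SE 0.27, limma's adjusted p 0.110, and 0.043 with the replicate number as a block) and overlapping groups. With 1 probe set per gene, where 28.8% of genes passed, its adjusted p from limma was 0.046. H1-4 and the testis histone H1-6 were at log2 changes of 0.23 and 0.31, neither past the threshold. H1-1 and H1-5 were under the filter. H1-10, a replication-independent linker histone, was at 695, 586 and 481 in the control and 413, 395 and 466 in the PARK2 arrays. The groups did not overlap, yet the control arrays differed among themselves more than their lowest value differed from the PARK2 arrays. Its log2 change of -0.44 (SE 0.16) missed the threshold (limma's adjusted p 0.056), and passed it without control replicate 3 (adjusted p 0.017), after median centring (0.026), quantile normalization (0.0097) or trimmed mean scaling (0.0094), and with 1 probe set per gene (0.024).

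**Figure D1:**
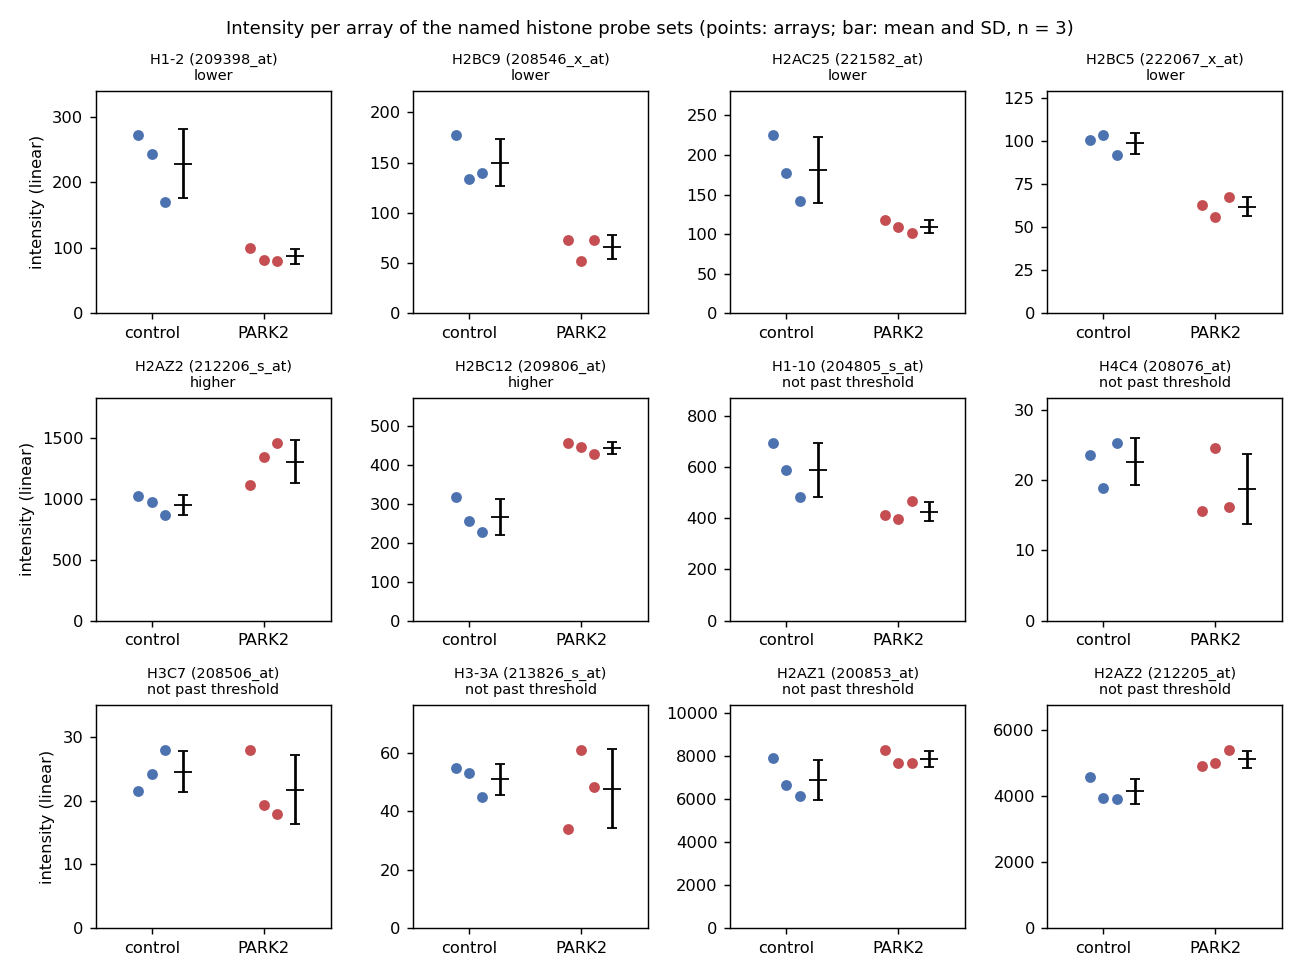
Intensity (linear, from 0) in each control and PARK2 array for the 12 named histone probe sets that were tested, with the mean and SD of 3 arrays beside the points. H1-2 lies between 170 and 272 in control and at or under 100.2 in PARK2 arrays, while H2BC12 lies at or under 318 in control and at or over 427 in PARK2 arrays.

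Of the 8 tested probe sets of the core histone class H2B 1 was higher, 2 were lower and 5 did not pass. Of all tested probe sets 20.4% passed. H2BC12 rose, from 318, 255 and 228 in the control arrays to 457, 445 and 427 in the PARK2 arrays, with no overlap and little spread among the PARK2 arrays. Its mean went from 267 ± 46.2 (SD, n = 3) to 443 ± 15.2, a log2 change of 0.71 (SE 0.16, limma's adjusted p 0.0032). Its probe set carries no mark of shared probes. Its adjusted p stayed between 1.5e-05 and 0.018 under the 18 other settings.

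H2BC9 fell, from 177, 133 and 139 in the control arrays to 72.5, 52.6 and 73.1 in the PARK2 arrays. All 3 PARK2 values were below the lowest control value. The mean went from 150 ± 23.7 (SD, n = 3) to 66.1 ± 11.7, a log2 change of -1.02 (SE 0.18, limma's adjusted p 0.00050). This probe set is marked _x_at, which means that some of its probes match other transcripts too, and H2B genes are near-identical, so the value may belong in part to other H2B genes.

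H2BC5 is read by a pair of probe sets, both marked _x_at, and 1 of them fell. The one that fell was at 100.6, 103 and 91.9 in the control and 62.6, 56.0 and 67.3 in the PARK2 arrays, a log2 change of -0.56 (SE 0.17, limma's adjusted p 0.025). The other was at 84.8 ± 5.28 and 72.3 ± 12.7 (SD, n = 3), a log2 change of -0.20 (limma's adjusted p 0.498), with overlapping groups. The call was lost without control replicate 2 (adjusted p 0.106) and without PARK2 replicate 1 (0.0500042), 2 (0.129) or 3 (0.054), and as the mean of both probe sets the gene was at -0.38 (limma's adjusted p 0.058).

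Of the 8 tested H2B probe sets 6 are marked _x_at or _s_at, the second for probes shared by several transcripts of a gene or family. H2BC12L, on chromosome 21, read 127 ± 3.25 in the control and 162 ± 5.75 in the PARK2 arrays (SD, n = 3 each). Its groups did not overlap, but the log2 change of 0.32 (SE 0.16) did not pass (limma's adjusted p 0.172). H2BC21, on chromosome 1, was at a log2 change of 0.29 and H2BC6 at -0.14, neither past the threshold. The other 7 clustered H2B probe sets were under the filter.

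In the H2A class 1 of 9 tested clustered probe sets changed, where 20.4% of all tested probe sets passed. H2AC25, on chromosome 1 away from the main cluster, was read by a pair of probe sets. The brighter was at 225, 178 and 142 in the control and 118, 109 and 102 in the PARK2 arrays, so the groups did not overlap. It fell from 181 ± 41.5 (SD, n = 3) to 109 ± 7.86, a log2 change of -0.63 (SE 0.18, limma's adjusted p 0.016), and missed the threshold without PARK2 replicate 3 (adjusted p 0.069). The dimmer, marked _x_at, was at 7.41 ± 7.05 and 17.5 ± 4.84 (SD, n = 3) and did not pass the test (limma's adjusted p 0.135). Its control mean was under 9.95, the lowest mean intensity over all arrays of any probe set past the filter. The mean of both, which gives this dim probe set equal weight, was at -0.04 (limma's adjusted p 0.897). H2AC6, the other H2A probe set above 40 intensity units, was at 82.6 ± 22.3 and 94.9 ± 2.83 (SD, n = 3), a log2 change of 0.19 that did not pass. The 7 tested H2A probe sets under 40 intensity units, the dimmer H2AC25 one among them, had group means of at most 22.3.

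**Figure D2:**
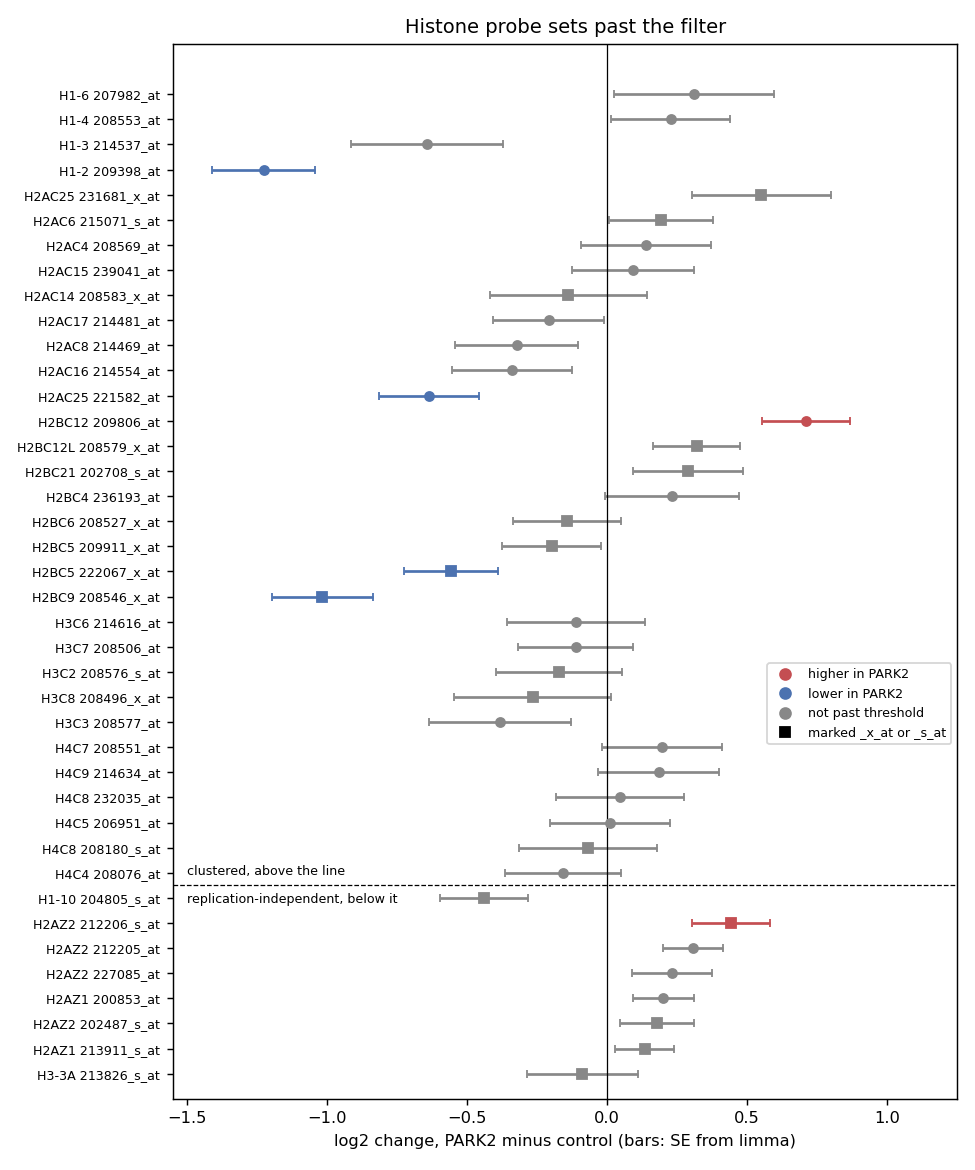
Log2 change of each of the 40 tested histone probe sets (PARK2 minus control, with limma's SE as bars), ordered by class, with squares for probe sets marked _x_at or _s_at. The 4 that were lower run from -1.23 (H1-2) to -0.56 (H2BC5) and the 2 that were higher are H2BC12 (0.71) and H2AZ2 (0.44).

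For clustered H3 and H4 the single-gene probe sets were dim and 0 of 11 tested passed limma's threshold. Of all tested probe sets with a mean under 40 intensity units, 8.27% passed. The 5 tested H3 probe sets had log2 changes from -0.38 (H3C3) to -0.11, and the 6 tested H4 probe sets from -0.16 (H4C4) to 0.19 (H4C7). The brightest H3 probe set, H3C7, read 24.6 ± 3.27 in the control and 21.8 ± 5.47 in the PARK2 arrays (SD, n = 3 each). The brightest H4 probe set, H4C4, was at 22.6 ± 3.32 and 18.8 ± 4.99 (SD, n = 3 each).

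The histone probe sets that passed were all among the brighter ones, but most of the brighter ones did not pass. A gap lay between 23.9 and 49.4 intensity units, and a split at 40, chosen after the values were seen, left 17 tested histone probe sets above it. All 6 that passed the test were among these 17, against 26.2% of all probe sets with a mean over 40. Of the 23 histone probe sets under 40, 0 passed limma's threshold, against 8.27% of all probe sets under 40. Of the 9 clustered probe sets above 40, 1 was higher, 4 were lower and 4 did not pass. Taken by array, the median deviation of these 9 from the control mean on the log2 scale was 0.25, -0.04 and -0.20 for the control and -0.32, -0.40 and 0.01 for the PARK2 arrays. In this view PARK2 replicate 3 lay within the control range and the other PARK2 arrays below it. The arrays were not rescaled for this. The control deviations ran in the order of the control trimmed means (168, 149 and 137). PARK2 replicate 3 had the highest PARK2 trimmed mean (155, against 141 and 149). The part of array brightness in these deviations was not tested.

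**Figure D3:**
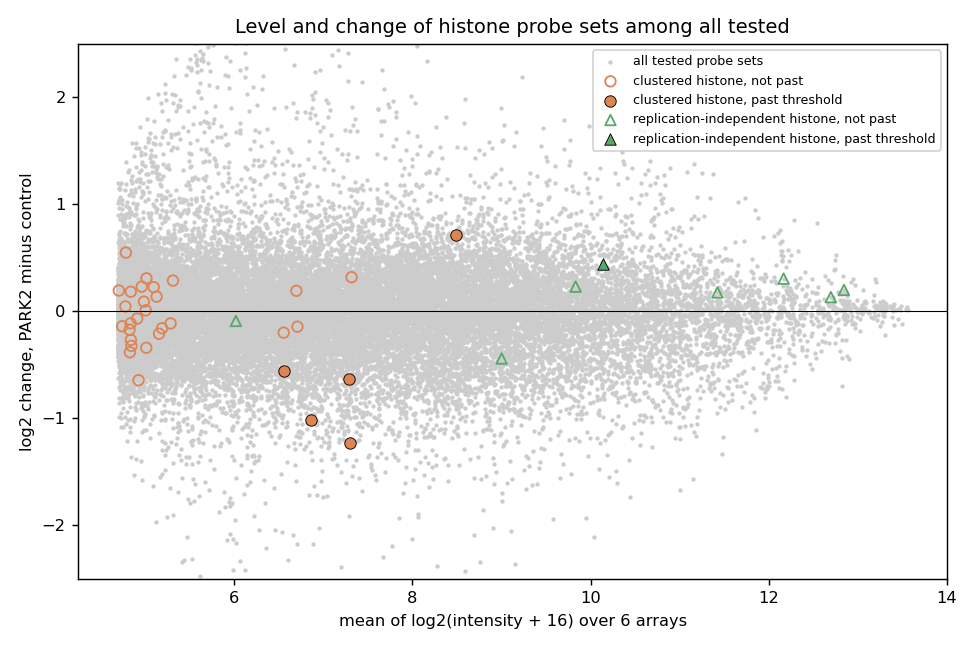
Mean log2(intensity + 16) over the 6 arrays against log2 change for the tested probe sets (grey, with 99 of 26603 beyond the vertical axis limit of 2.5 on either side) and for the 40 tested histone probe sets. The clustered probe sets that passed stand between the dim clustered group on the left and the bright H2AZ1 and H2AZ2 probe sets on the right.

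The 25 histone probe sets under the filter had no single value above 19.9 intensity units in any array. They include 17 clustered probe sets and the oocyte and testis linker histones H1-8 and H1-7. Tested without the filter, 0 of the 25 passed limma's threshold, and the smallest adjusted p was 0.086, for H2BC3 (2.23 ± 1.08 and 7.46 ± 0.65, SD, n = 3 each).

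Of the 8 tested replication-independent probe sets 1 rose and 0 fell by limma's test. Of all tested probe sets with a mean over 40, where these 8 lie, 26.2% passed. H2A.Z, which marks promoters and enhancers, is encoded by H2AZ1 and H2AZ2, read by 6 probe sets. H2AZ1 was at 7885, 6629 and 6116 in the control and 8283, 7668 and 7648 in the PARK2 arrays on its brightest probe set, with overlapping groups and a log2 change of 0.20 (SE 0.11, limma's adjusted p 0.223). H2AZ2 was at 4555, 3932 and 3894 in the control and 4909, 4996 and 5388 in the PARK2 arrays on its brightest probe set. These groups did not overlap, and the log2 change of 0.31 (SE 0.11) just missed the threshold (limma's adjusted p 0.054), while it passed with the replicate number as a block (adjusted p 0.024).

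Another H2AZ2 probe set, marked _s_at, rose from 1024, 973 and 865 to 1114, 1345 and 1465, a log2 change of 0.44 (SE 0.14, limma's adjusted p 0.031). That call was lost without control replicate 2 (adjusted p 0.085) or 3 (0.092) and without PARK2 replicate 2 (0.124) or 3 (0.190). The other 2 H2AZ2 probe sets were at 0.18 and 0.23, neither past the threshold, and the mean of the 4 was at 0.29 (SE 0.13, limma's adjusted p 0.105). All 6 H2A.Z probe sets had a log2 change above 0, as described and under quantile normalization, median centring and trimmed mean scaling. They read only H2AZ1 and H2AZ2 on the same arrays, so the shared sign is not 6 separate observations. The number past the threshold went from 1 to 6 under quantile normalization, 2 under median centring, 3 under trimmed mean scaling and 6 without control replicate 1. Over all tested probe sets the higher count also grew in these settings, from 2422 to 3705, 2689, 3732 and 3635.

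H3-3A, a gene of the replacement histone H3.3, has 1 probe set of its own, at 50.9 ± 5.23 in the control and 47.8 ± 13.7 in the PARK2 arrays (SD, n = 3 each). Its groups overlapped (log2 change -0.09, SE 0.20, limma's adjusted p 0.820), and the sign turned without PARK2 replicate 1 (0.08).

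A further 28 probe sets carried several gene symbols with at least 1 histone among them and were therefore no members. Tested in a fit that included such probe sets, which was chosen after seeing the data and called 20.2% of probe sets, 25 passed the filter, 0 were higher and 2 were lower. Both that were lower read a pair of H2A genes, at log2 changes of -0.77 and -0.65 (limma's adjusted p 0.0062 and 0.012). The first was at 373, 312 and 238 in the control and 180, 136 and 203 in the PARK2 arrays, without overlap. The 8 probe sets shared by the H3.3 genes ran from 662 to 8309 intensity units in control cells and from -0.13 to 0.13 in log2 change, none past the threshold. One probe set shared by 14 H4 genes read 8952 ± 647 in the control and 9701 ± 292 in the PARK2 arrays (SD, n = 3 each), a log2 change of 0.12 (limma's adjusted p 0.448).

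Genes that lie among the clustered histone genes of chromosome 6, between H2AC1 and H2BC17 in RefSeq gene order, were compared with 1 probe set per gene. Of 16 tested genes of other kinds 5 were higher and 0 lower, with a median log2 change of 0.09. Of 26 tested histone genes in the same stretch 1 was higher and 4 lower, with a median of -0.13. In this fit 13.3% of all genes were higher and 15.6% lower. The difference between the counts was not tested.

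Other histones were looked at by gene, in the same fit. Of 4 tested variant histones that were no members, 1 rose and 1 fell, where 28.8% of all genes passed, and the median log2 change was -0.12. CENPA, the H3 variant of centromeres, fell from 447, 363 and 393 to 270, 300.02 and 283 (log2 change -0.47, SE 0.16, limma's adjusted p 0.017), and missed the threshold with the replicate number as a block (adjusted p 0.052) and without any single PARK2 replicate (0.053 to 0.076). The CENPA probe set is marked _x_at. H2AJ rose from 46.6, 8.92 and 10.2 to 51.2, 33.3 and 68.7 (log2 change 0.93, SE 0.24, limma's adjusted p 0.0018), with overlapping groups. That probe set is marked _x_at, and on the unmarked one H2AJ was at -0.25 (limma's adjusted p 0.532). H2AX, the variant phosphorylated at DNA breaks, was at -0.23 (limma's adjusted p 0.176).

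Of 17 tested genes that transcribe and trim histone mRNA 2 rose, 1 fell and 14 did not pass, with a median log2 change of 0.11. Over all genes 28.8% passed, and the difference from that share was not tested. With array weights 9 of the 17 rose and 3 fell. That setting raised calls across the array, from 2422 higher and 2994 lower to 5905 and 5352 of 26603 probe sets. With the replicate number as a block 1 of the 17 rose and 0 fell. NCBP1, the large subunit of the nuclear cap-binding complex, rose from 330, 314 and 325 to 438, 525 and 508 (log2 change 0.57, SE 0.15, limma's adjusted p 0.0024), but was at 0.38 (adjusted p 0.178) on an unmarked probe set. ERI1, an exonuclease that trims the histone stem-loop, rose by 0.41 (adjusted p 0.041, and 0.106 with the block), and missed the threshold without control replicate 2 (0.161) or PARK2 replicate 1 (0.068), 2 (0.124) or 3 (0.223). CPSF3, the nuclease that cuts histone and other pre-mRNAs, fell by 0.41 (adjusted p 0.029, and 0.065 with the block), and missed it without control replicate 1 (0.077) or 2 (0.135) or PARK2 replicate 1 (0.085), 2 (0.090) or 3 (0.114). Named after their values were seen, SLBP, which binds the stem-loop, was at 0.25 (limma's adjusted p 0.132) and NPAT, the coactivator of histone gene transcription, at -0.33 (0.115).

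Of 29 tested histone chaperones, which carry histones to DNA, 6 rose, 4 fell and 19 did not pass, with a median log2 change of 0.03. This is near the background of 28.8% of all genes (13.3% higher and 15.6% lower) and is no result about chaperones as a group. With the block ATRX, at 0.40, missed the threshold (limma's adjusted p 0.040, and 0.075 with the block). NAP1L2, a nucleosome assembly protein of neurons, fell from 152, 97.7 and 90.7 to 20.5, 10.5 and 20.2, and its groups lay far apart (log2 change -1.95, SE 0.20, limma's adjusted p 2.5e-12). RBBP7, a histone-binding subunit of several chromatin complexes, fell from 3852, 3240 and 3147 to 2111, 2044 and 2030 (log2 change -0.72, SE 0.12, limma's adjusted p 4.1e-06). HJURP, the chaperone of CENPA, rose from 1124, 949 and 920 to 1711, 1768 and 1816 (log2 change 0.82, SE 0.14, limma's adjusted p 1.5e-06). This is the opposite direction to CENPA itself, which was read on a probe set marked _x_at. NAP1L3 rose from 5.12 ± 3.14 to 23.8 ± 5.96 (SD, n = 3), a log2 change of 0.91 (limma's adjusted p 0.0023). Its control mean was under 9.95, the lowest mean intensity over all arrays of any probe set past the filter.

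Of 29 tested S-phase genes 2 rose, 4 fell and 23 did not pass, and the median log2 change was -0.13. Over all genes 13.3% rose and 15.6% fell. CCNE2, a cyclin of S-phase entry, fell by 0.39 and missed the threshold with the block (limma's adjusted p 0.028, and 0.069 with the block). POLA1, the catalytic subunit of DNA polymerase alpha, fell from 923, 687 and 656 to 376, 412 and 424 (log2 change -0.86, SE 0.15, limma's adjusted p 6.0e-06). MCM4, a subunit of the replicative helicase, fell by 0.78 and the thymidine kinase TK1 by 0.49 on the log2 scale, while cyclin A2 (CCNA2) rose by 0.54. Under quantile normalization 3 of the 29 rose and 8 fell. By probe set, 3705 rose and 3798 fell of all 26603 in that setting.

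**Figure D4:**
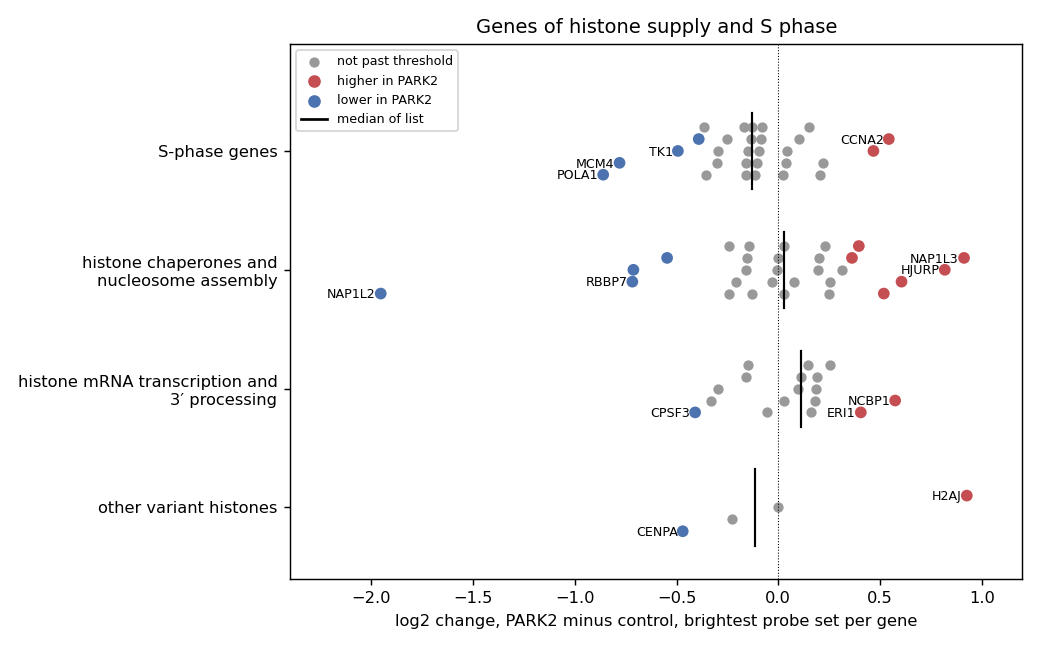
Log2 change (PARK2 minus control) of each tested gene in the 4 lists, by its brightest probe set, with a black line at the list median. NAP1L2 stands apart at -1.95, and the list medians lie between -0.13 (S-phase genes) and 0.11 (histone mRNA transcription and processing).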

How the data were processed

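Per the submitters' processing notes, GCOS and MAS5 were used, with no version, role or scaling target given; the authors' deposited values, on 6 arrays, are intensities on a linear scale. Symbols came from GEO's platform annotation: of 54675 probe sets 62 were controls, 41091 had 1 symbol, 1801 several and 11721 none in the table used. Tested probe sets had 1 symbol and a mean of log2(intensity + 16) at or above the 40th percentile of non-control probe sets. This left 26603 probe sets, or 13720 genes by the brightest probe set.

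PARK2 and control arrays were compared by limma 3.58.1 under R 4.3.3, using a trended prior and Benjamini-Hochberg adjustment over all tested. Prior degrees of freedom were 13.7 by probe set and 60.8 by gene, against 4 residual. The step was tested on simulated data with known answers. It recovered 8.96% of 1.5-fold, 44.8% of 2-fold and 92.4% of 4-fold changes, with 8 false calls, so smaller changes can be missed. Only 67, 67 and 66 probe sets were changed at these sizes, against 5416 called here, so the shares need not hold for the data. Members and lists were chosen with earlier results of these data known. Named were histone probe sets past the threshold, the brightest of each replication-independent gene and clustered class, and up to 4 genes per list past the threshold with the largest change. Deviations from the group means correlated between arrays of 1 number (r across probe sets of 0.401, 0.179 and 0.130; other pairs from -0.284 to 0.162). The numbers come from the sample titles. The correlations do not settle the pairing, since number 3 (0.130) lay under control 3 with PARK2 2 (0.162). The replicate block rests on these numbers and is given beside results whose call it changes. Group labels were taken as given, and transgene expression is not reported here. The closing section gives the alternatives tried. The number of arrays limits the precision.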

Additional observations from a re-analysis of the deposited data

How the results depend on the processing

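Counts with the brightest probe set or the mean of the probe sets are of genes and not of probe sets. Among clustered histones, 1 probe set was higher and 4 were lower. The higher count was 5 with array weights, 2 with trimmed mean scaling and 1 to 2 over the left-out arrays. The lower count was 2 with no filter, 2 without probe sets marked _x_at or _s_at, 2 with the mean of the probe sets of each gene, and 2 to 5 over the left-out arrays. H1-2, H2BC12 and H2BC9 kept their calls under every alternative run on them. Among replication-independent histones, 1 probe set was higher and 0 were lower by limma. The higher count was 2 with the 60th percentile filter, 5 with array weights, 2 with median centring, 6 with quantile normalization, 3 with trimmed mean scaling and 2 with the replicate block. It was 0 with no filter, without an intensity trend, without marked probe sets and with the mean of the probe sets, and 0 to 6 over the left-out arrays. The lower count was 1 with the 60th percentile filter, array weights, median centring, quantile normalization, trimmed mean scaling, the brightest probe set and the mean of the probe sets, and 0 to 1 over the left-out arrays. H4C4 (0.00054 with array weights), H3-3A (0.078 without PARK2 replicate 1, and -0.24 to 0.078 over the left-out arrays) and H2AJ (-0.25 without marked probe sets) changed sign.

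Of all probe sets, 2422 were higher and 2994 lower. The higher count was 5905 with array weights, 3705 with quantile normalization, 3732 with trimmed mean scaling, 1461 with the mean of the probe sets and 1529 (without PARK2 replicate 3) to 3635 (without control replicate 1) over the left-out arrays. The lower count was 5352 with array weights, 1830 without marked probe sets and 2166 to 3175 over the left-out arrays. With the mean of the probe sets 1461 were higher and 1884 lower, counted over 13720 genes and not over the 26603 probe sets. With probe sets of several genes, an alternative added after seeing the data, the histone counts were 1 and 4, and 1 and 0.

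Of the 2 variant histones called, 1 was left with the 60th percentile filter, the mean of the probe sets, no filter and the replicate block, 0 without marked probe sets, and 1 to 2 over the left-out arrays. Of the 17 tested genes of histone mRNA transcription and processing, 3 were called, against 12 with array weights, 1 without an intensity trend, 6 with quantile normalization, 1 with the replicate block, 5 with trimmed mean scaling and 1 to 4 over the left-out arrays. For the 10 called chaperones the count was 18 with array weights and 6 to 13 over the left-out arrays. For the 6 called S-phase genes it was 17 with array weights, 11 with quantile normalization and 5 to 10 over the left-out arrays. With the replicate block the clustered lower count was 5, through H1-3, 5 chaperones rose and 3 S-phase genes fell. Among tested histone probe sets and list genes the block changed only the calls of H1-3, H2AZ2, CENPA, ERI1, CPSF3, ATRX and CCNE2, and its fit had infinite prior degrees of freedom, so it used 1 variance trend for all. The cause of these shifts was not tested, apart from the smaller number of probe sets where some were dropped.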
